A study of Mus musculus with 6 samples.

Results

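The 9 genes of the fibroblast growth factor (FGF) system, the secreted ligands Fgf1, Fgf2, Fgf9 and Fgf16, the intracellular family members Fgf12 and Fgf13 and the receptors Fgfr1, Fgfr2 and Fgfr3, were followed in mouse hearts 14 days after myocardial infarction (MI). The 9 genes were listed by symbol, with earlier results of these data known, and all 9 were found among the 38293 genes of the count table. RNA-seq libraries came from 3 WT and 3 Zeb2 cKO hearts of C57BL/6J (backcrossed) mice, which all received a permanent occlusion of the left anterior descending (LAD) artery. Zeb2 cKO mice carried floxed Zeb2 alleles and a Cre recombinase driven by the Myh6 (αMHC) promoter, which is active in cardiomyocytes, so that the zinc finger transcription factor ZEB2 was targeted in that cell type. The methods describe the control mice as Zeb2 fl/fl without mention of Cre, whereas the labels call them WT, so an effect of Cre and an effect of Zeb2 deletion cannot be told apart. According to the methods the mice were male and adult, at 8 to 10 weeks of age. The labels place the tissue in the border region of the infarct and the methods place it in the remote zone.

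FGF ligands of the secreted kind bind receptor tyrosine kinases together with heparan sulfate chains on the cell surface, and the activated receptor signals through docking proteins to the RAS and MAPK cascade. The intracellular FGFs, also called FGF homologous factors, are not secreted in the classical way and bind the cytoplasmic tail of voltage-gated sodium channels. In the heart the FGF system is known for roles in cardiomyocyte growth, vessel formation and the response to injury. The comparison of Zeb2 cKO with WT asked whether the mRNA of these genes differed when ZEB2 was targeted in cardiomyocytes.

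Depth ranged from 37288174 to 51136331 counts per library, of which 60.5 to 67.0% came from mitochondrially encoded genes. Values below are counts-per-million values (CPM) after trimmed mean of M-values (TMM) scaling, which corrects for depth and composition. Counts of the whole Zeb2 gene, the targeted gene, were 61.3, 116 and 71.9 CPM in WT 1, 2 and 3 and 59.6, 72.6 and 66.5 CPM in Zeb2 cKO 1, 2 and 3. The ranges of Zeb2 overlapped, and the log2 fold change of Zeb2 cKO over WT was -0.33 (SE 0.25, n = 3 per genotype, exact permutation p = 0.5). Without WT 2 it was -0.01 (interval -0.29 to 0.28). One library stood apart from the other 5. In WT 2 all 10 fibroblast markers and all 8 macrophage markers were at their highest, and 9 of 10 cardiomyocyte markers were at their lowest. The summed level of the fibroblast markers was 10403 CPM in WT 2 against 1790 to 2525 CPM in the other libraries. Macrophage markers summed to 814 CPM in WT 2 and to 203 to 285 CPM elsewhere, and cardiomyocyte markers summed to 13207 CPM in WT 2 and to 21805 to 27408 CPM elsewhere. No marker of these lists was at 0 in all libraries. Across the 14746 genes tested, WT 2 lay above all other libraries for 5189 genes and below all others for 5109 genes. For this reason the differences of the FGF genes are given with WT 2 and without it. In bulk tissue, fewer cells of a type and less RNA per cell cannot be told apart.

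The promoter windows shown here are those of the FGF genes that hold the letters to which ZEB proteins bind, CACCT or its reverse complement AGGTG. RefSeq windows of the 250 bases before a transcription start (build GRCm38.p6) were found for 6 of the 9 genes, with 13 windows in all, and 3 windows of 2 genes held the letters on either strand. The same letters were present in 15100 of 32851 RefSeq windows of that length (46.0%). The longer form CACCTG or CAGGTG, which overlaps the shorter one, was in 5657 windows (17.2%) and in 0 of the 13 windows of FGF genes. A match is a description of the letters only. Both windows of Fgf12 belong to starts inside the annotated span of the gene, and the window of Fgfr3 ends directly before its first RefSeq start. They are written 5′ to 3′ on the strand of the gene, and the capitals mark the matched letters.
Fgf12, chr16:28446076-28446325, minus strand: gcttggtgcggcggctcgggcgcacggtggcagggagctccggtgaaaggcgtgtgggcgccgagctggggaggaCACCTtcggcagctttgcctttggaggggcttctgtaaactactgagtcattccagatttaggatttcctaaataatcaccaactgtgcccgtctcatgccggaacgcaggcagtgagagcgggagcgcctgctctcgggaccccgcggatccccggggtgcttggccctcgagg
Fgf12, chr16:28564496-28564745, minus strand: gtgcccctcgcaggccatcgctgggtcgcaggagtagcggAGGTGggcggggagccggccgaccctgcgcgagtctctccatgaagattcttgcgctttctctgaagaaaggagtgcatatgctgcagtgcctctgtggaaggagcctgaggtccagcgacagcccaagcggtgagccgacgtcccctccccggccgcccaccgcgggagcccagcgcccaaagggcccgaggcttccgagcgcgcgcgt
Fgfr3, chr5:33721474-33721723, plus strand: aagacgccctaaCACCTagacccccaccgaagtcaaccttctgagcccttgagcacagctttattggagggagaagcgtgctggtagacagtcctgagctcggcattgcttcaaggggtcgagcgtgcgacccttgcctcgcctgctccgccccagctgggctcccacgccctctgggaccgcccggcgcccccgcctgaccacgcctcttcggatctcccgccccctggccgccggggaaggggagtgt
Counted from the transcription start, the first matched base lay at -175 and -210 in the Fgf12 windows and at -238 in the Fgfr3 window. The 4 windows of Fgf13, the single windows of Fgf2, Fgf9 and Fgfr2, and the remaining windows of Fgf12 and Fgfr3 held no match.

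None of the FGF genes passed the test between the genotypes. Of the 9 genes, 8 were kept by the filter on low counts, and 0 of these 8 had an adjusted p under 0.05 in edgeR's quasi-likelihood test (Benjamini-Hochberg over all tested genes), where 0% of all tested genes did. At an unadjusted p under 0.05 the count was 0 of 8 against 1.9% of all tested genes, and DESeq2's Wald test also gave 0 of 8 by either criterion. The 3 libraries of one genotype lay wholly above those of the other for 0 of 8, against 6.36% of all tested genes. A log2 fold change over 0.2 was measured for 2 of 8, Fgf1 and Fgf9, against 15.9% of all tested genes, and one under -0.2 for 2 of 8, Fgfr1 and Fgfr2, against 22.6%. With 3 hearts per genotype an exact permutation test cannot give a p below 0.1, so the intervals of the differences are given for each gene.

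**Figure D1:**
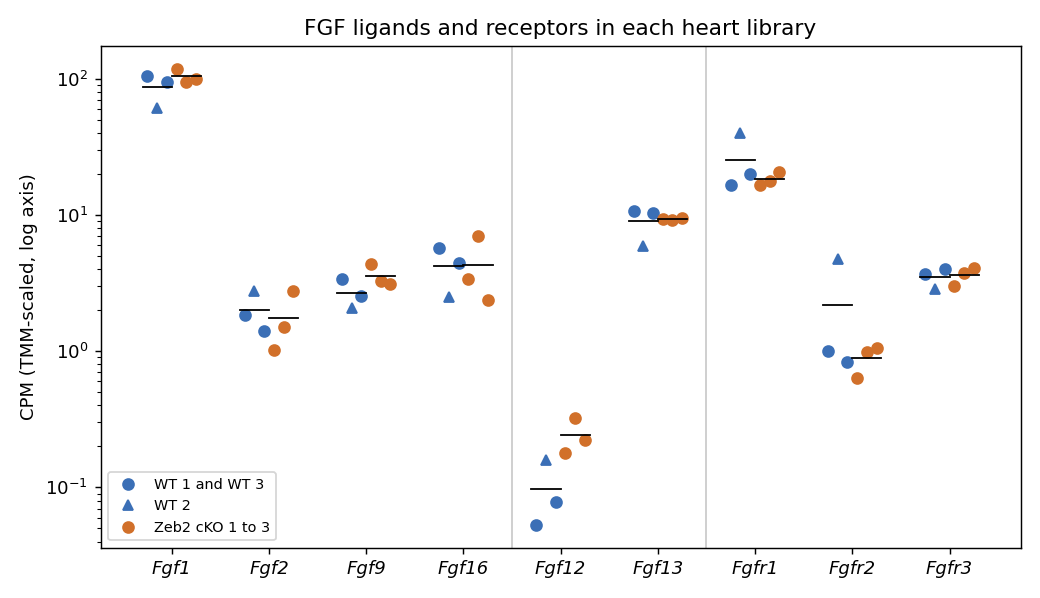
TMM-scaled CPM (log axis) of the 9 FGF genes in each of the 6 libraries, with WT in blue (WT 2 as a triangle), Zeb2 cKO in orange and the group means as black bars. WT 2 lies above the other 5 libraries for Fgfr1 and Fgfr2 and below them for Fgf1, Fgf9, Fgf13 and Fgfr3.

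Among the secreted ligands, Fgf1 had by far the highest level. Fgf1 encodes acidic FGF, which binds all of the FGF receptors, and lies at chr18:38838673-38929472 on the minus strand (GRCm38). Its level was 106, 60.9 and 94.6 CPM in WT 1, 2 and 3 and 119, 95.3 and 101 CPM in Zeb2 cKO 1, 2 and 3, with group means of 87.1 ± 23.3 and 105 ± 12.3 CPM (SD, n = 3). The lowest value belonged to WT 2 and the other 5 libraries differed by at most 1.26-fold, so the groups overlapped. The log2 fold change was 0.27 (SE 0.22, 95% interval -0.26 to 0.80, exact permutation p = 0.4), and it was 0.07 without WT 2 (interval -0.23 to 0.36). The adjusted p of Fgf1 was 0.957 in edgeR's quasi-likelihood test.

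Fgf9 is a secreted ligand known from the developing heart, where it comes from the endocardium and epicardium (chr14:58070547-58112720, plus strand). It measured 3.37, 2.07 and 2.53 CPM in the WT libraries and 4.34, 3.27 and 3.11 CPM in the Zeb2 cKO libraries. WT 1 lay above 2 of the Zeb2 cKO libraries, while WT 2 and WT 3 lay below all of them. The Zeb2 cKO mean of 3.57 ± 0.67 CPM (SD, n = 3) was 134% of the WT mean of 2.66 ± 0.66 CPM, with a log2 fold change of 0.43 (SE 0.24, interval -0.13 to 0.99, exact permutation p = 0.3). Fgf9 was the FGF gene with the highest log2 fold change among the 8 tested, and the value was above 0 whichever library was left out (0.26 to 0.64, with 0.28 without WT 2). Without WT 1 the Fgf9 groups did not overlap and the unadjusted p was 0.033, with an adjusted p of 0.596 in edgeR's quasi-likelihood test. In that fit 7.52% of all tested genes had an unadjusted p under 0.05, and 23% had groups that did not overlap.

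Fgf16, a ligand known to be made by cardiomyocytes (chrX:105764279-105774939, plus strand), was the most variable of the secreted ligands within a genotype. WT 1, 2 and 3 had 5.76, 2.48 and 4.48 CPM, and Zeb2 cKO 1, 2 and 3 had 3.42, 7.03 and 2.36 CPM. Both the highest and the lowest library were Zeb2 cKO, a 2.97-fold range. The group means were 4.24 ± 1.65 and 4.27 ± 2.45 CPM (SD, n = 3), and the log2 fold change of 0.01 (SE 0.46) had an interval from -1.09 to 1.10. A change within that interval was not detectable at this spread. Its direction followed single libraries, at -0.27 without WT 2 and -0.55 without Zeb2 cKO 2.

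Fgf2, basic FGF, is known for its part in vessel growth and in protection of the ischemic heart (chr3:37348346-37410108, plus strand). Its libraries held 1.83, 2.76 and 1.41 CPM in WT and 1.02, 1.498 and 2.77 CPM in Zeb2 cKO, which came from 51 to 149 counts per library. The groups spanned nearly the same range, and the log2 fold change was -0.18 (SE 0.42, interval -1.18 to 0.81, exact permutation p = 0.8). Leaving out WT 2 turned the value to 0.13. Exons of Fgf2 share 640 bases (9.44% of its exons) with Nudt6 on the opposite strand, a gene known as the FGF2 antisense gene. Nudt6 had a log2 fold change of 0.06 (SE 0.32). The strand option used in counting is not given in the sources used here, so reads in the shared bases cannot be assigned with certainty.

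Within the summed level per kb of the 4 secreted ligands, Fgf1 took 77.0 to 88.0% in every library and Fgf16 took 6.87 to 18.9%. The Fgf1 share averaged 82.3 ± 1.10% in WT and 84.1 ± 6.13% in Zeb2 cKO (SD, n = 3), a difference of 1.80 percentage points that lay within the spread (exact permutation p = 0.7, adjusted over the 4 ligands 0.7). Such a share is computed within a library and does not depend on how libraries were scaled.

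Of the intracellular FGFs, Fgf13 was well measured and Fgf12 was close to the limit of detection. Fgf13 (chrX:59062145-59568071, minus strand) binds and modulates cardiac sodium channels. WT 1, 2 and 3 contained 10.6, 5.90 and 10.4 CPM, against 9.43, 9.13 and 9.47 CPM in Zeb2 cKO 1, 2 and 3. The Zeb2 cKO hearts were nearly alike, with an SD of 0.190 CPM around a mean of 9.34 CPM, and WT 2 alone was low. With all libraries the log2 fold change was 0.06 (SE 0.23, interval -0.48 to 0.60, exact permutation p = 1). Without WT 2 it was -0.17 (interval -0.40 to 0.06, unadjusted p = 0.13 in edgeR's test), and both remaining WT libraries lay above all 3 Zeb2 cKO libraries. In that comparison of 2 with 3 libraries, 15.5% of all genes had groups that did not overlap.

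Fgf12 (chr16:28160098-28753068, minus strand), another sodium channel partner, had 2, 7 and 3 counts in WT 1, 2 and 3 and 9, 14 and 12 counts in Zeb2 cKO 1, 2 and 3, and was removed by the filter. In CPM these were 0.053, 0.160 and 0.078 in WT and 0.180, 0.323 and 0.223 in Zeb2 cKO, so that all Zeb2 cKO libraries lay above all WT libraries (exact permutation p = 0.1, the smallest this design allows). The means were 0.0969 ± 0.0556 and 0.242 ± 0.0732 CPM (SD, n = 3), a ratio of 2.497, on 12 counts in WT and 35 in Zeb2 cKO. When libraries were scaled by their total counts, an alternative added after the data were seen, the highest WT value of 0.188 passed the lowest Zeb2 cKO value of 0.176 and the groups overlapped. With no filter on low counts, the log2 fold change of Fgf12 was 1.28 with an unadjusted p of 0.043 and an adjusted p of 0.858 in edgeR's quasi-likelihood test. Of all genes in that fit, 600 of 24115 had an unadjusted p under 0.05. In the fit without WT 2 Fgf12 passed the filter through 2 Zeb2 cKO libraries and 0 WT libraries, so no test of Fgf12 is given from that fit. Among the marker lists, the summed adipocyte markers were also wholly higher in Zeb2 cKO, at 1.70, 0.807 and 0.763 CPM against 0.345, 0.205 and 0.339 CPM in WT. Only 1 of the 6 adipocyte markers passed the filter on low counts, so these sums rest on few counts. A separation of 3 from 3 libraries cannot give an exact permutation p below 0.1, and several lists were looked at. The part of the adipocyte markers in the Fgf12 values was not tested. The summed levels of the other 8 lists overlapped between the genotypes.

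**Figure D2:**
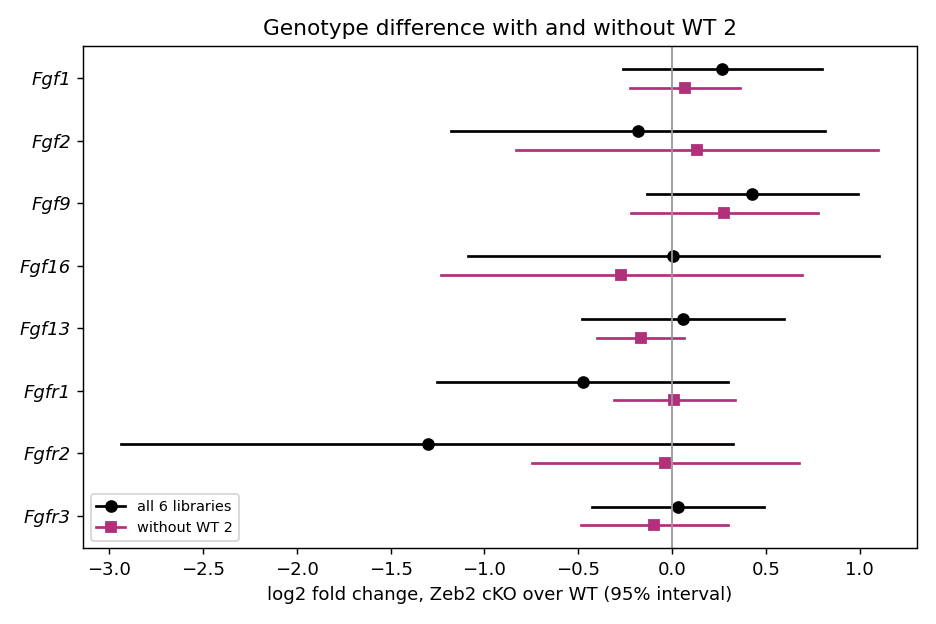
Log2 fold change of Zeb2 cKO over WT with its 95% interval for the 8 FGF genes kept by the filter, from all 6 libraries (black circles) and without WT 2 (purple squares). All intervals include 0, and the Fgfr1 and Fgfr2 values move to 0.01 and -0.04 without WT 2.

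Fgfr1 and Fgfr2 had the most negative log2 fold changes of the FGF genes, and both rested on WT 2. Fgfr1 (chr8:25513654-25575718, plus strand) encodes the main FGF receptor of the adult heart and is also expressed by fibroblasts. It was at 16.6, 40.2 and 20.0 CPM in WT 1, 2 and 3 and at 16.6, 17.9 and 20.8 CPM in Zeb2 cKO 1, 2 and 3. Outside WT 2 the 5 libraries lay between 16.6 and 20.8 CPM, and WT 2 was 2.19 times their mean. The log2 fold change was -0.48 (SE 0.33, interval -1.25 to 0.30, exact permutation p = 0.6) with all libraries and 0.01 (interval -0.31 to 0.34) without WT 2.

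Fgfr2 (chr7:130162451-133123350, minus strand) binds different ligands depending on which isoform is spliced, and is known in mesenchymal and epithelial cells. Its values were 1.01, 4.76 and 0.833 CPM in WT and 0.639, 0.991 and 1.06 CPM in Zeb2 cKO. WT 2 was 5.17 times the mean of the other WT hearts, the widest such gap among the FGF genes, and the other 5 libraries overlapped. The log2 fold change of -1.30 (SE 0.69, interval -2.93 to 0.33, exact permutation p = 0.5) moved to -0.04 (interval -0.74 to 0.67) without WT 2. Leaving out WT 1 or WT 3 instead gave -1.64 and -1.69, with unadjusted p of 0.049 and 0.037 and adjusted p of 0.596 and 0.916 in edgeR's quasi-likelihood test. Of all tested genes, 7.52% and 2.51% had an unadjusted p under 0.05 in these fits. The fibroblast and macrophage marker levels that were high in WT 2 moved together with Fgfr1 and Fgfr2, and their part in the result was not tested. In the annotation the exons of Fgfr2 share 314 bases (3.04%) with Ctbp2 on the same strand, and Ctbp2 ranged only from 10.4 to 12.6 CPM, with 12.5 CPM in WT 2.

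Fgfr3 (chr5:33721674-33737068, plus strand), best known for its role in cartilage growth, was the least variable of the FGF genes, with a 1.41-fold range over all libraries. WT 1, 2 and 3 had 3.72, 2.87 and 4.01 CPM, and Zeb2 cKO 1, 2 and 3 had 3.04, 3.73 and 4.06 CPM. The ranges coincided, and the log2 fold change was 0.03 (SE 0.19, interval -0.43 to 0.49, exact permutation p = 0.7). Unlike Fgfr1 and Fgfr2, Fgfr3 was at its lowest in WT 2, and without that library its log2 fold change was -0.09 (interval -0.49 to 0.30).

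**Figure D3:**
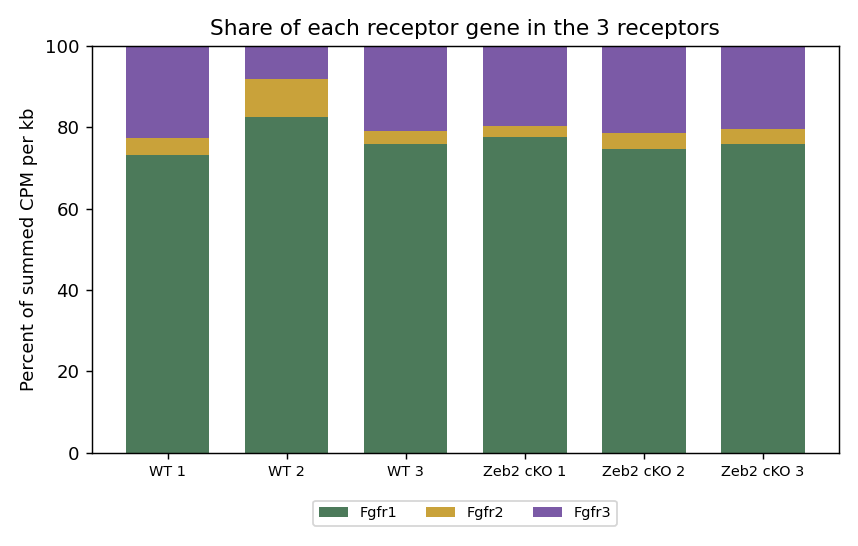
Percent of the summed CPM per kb of Fgfr1, Fgfr2 and Fgfr3 taken by each receptor gene in each library, as stacked bars. Fgfr3 takes 8.13% in WT 2 and 19.6 to 22.6% in the other 5 libraries, and Fgfr1 is the main receptor in all 6.

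As a share of the summed receptor level per kb, Fgfr1 made up 73.1, 82.5 and 76.0% in WT and 77.5, 74.5 and 75.9% in Zeb2 cKO. Fgfr2 accounted for 4.26, 9.35 and 3.03% in WT and 2.86, 3.95 and 3.70% in Zeb2 cKO, and Fgfr3 for 22.6, 8.13 and 21.01% in WT and 19.6, 21.5 and 20.4% in Zeb2 cKO. WT 2 thus held more Fgfr1 and Fgfr2 and less Fgfr3 relative to the other hearts. Mean shares differed between the genotypes by -1.22 points for Fgfr1, -2.04 points for Fgfr2 and 3.25 points for Fgfr3 (Zeb2 cKO minus WT). None lay beyond the spread (exact permutation p = 0.8, 0.4 and 0.9, all 0.9 after adjustment over the 3 receptors). Without WT 2 the differences were 1.45, -0.14 and -1.31 points, so those of Fgfr1 and Fgfr3 changed direction. Fgfr4, the remaining signalling receptor, had 0 to 2 counts per library. Fgfrl1, a receptor-like gene without a kinase domain, averaged 2.63 CPM per kb over the 6 libraries, beside 2.23 CPM per kb for Fgfr1.

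Compared with one another per kb of merged exons, the FGF genes spanned a wide range of levels. The mean over the 6 libraries was 17.6 CPM per kb for Fgf1, 2.59 for Fgf16, 2.28 for Fgf13, 2.23 for Fgfr1, 0.670 for Fgf9, 0.499 for Fgfr3, 0.277 for Fgf2, 0.150 for Fgfr2 and 0.0273 for Fgf12. Fgf1 was above Fgf16 in 6 of 6 libraries, by 7.22 times on average, Fgfr1 above Fgf9 in 6 of 6 and Fgfr2 above Fgf12 in 6 of 6. Each of these comparisons gave p = 0.031, the smallest that an exact two-sided sign-flip permutation test of 6 libraries can give, and 0.083 after adjustment over the 8 neighbours. Fgf16 against Fgf13 and Fgf13 against Fgfr1 did not differ beyond their spread, with permutation p of 0.66 and 0.81. Using the longest transcript as length in place of merged exons moved 4 of the genes to another rank, Fgfr1 to the second and Fgf16 to the fourth place.

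**Figure D4:**
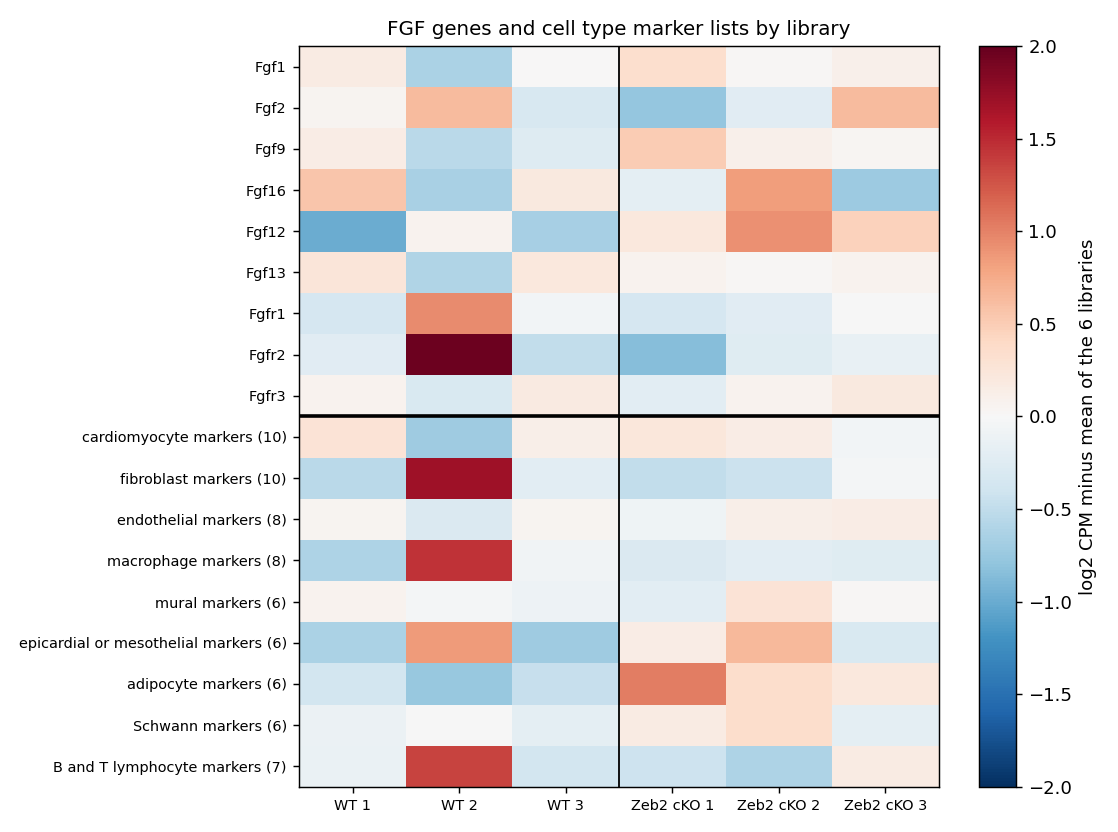
Log2 CPM of each FGF gene (upper rows), and the mean over each cell type marker list (lower rows, number of markers in brackets), minus the mean of the 6 libraries; red is above and blue below that mean. WT 2 is high for Fgfr1, Fgfr2 and the fibroblast and macrophage markers and low for Fgf1, Fgf9, Fgf13 and the cardiomyocyte markers.

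Relative to the mean of the other 5 libraries, WT 2 held 59.1% of the Fgf1 level, 62.4% of Fgf9, 60.1% of Fgf13 and 53.9% of Fgf16, whereas Fgfr1 was at 219% and Fgfr2 at 525%. Cardiomyocyte markers were low in the same library. For 6 of the 8 tested FGF genes WT 2 lay outside the range of all other libraries, as it did for 69.8% of all tested genes. Endothelial markers summed to 460 CPM in WT 2 and to 550 to 654 CPM in the other 5 libraries, mural markers to 546 CPM and to 628 to 759 CPM. Single markers went both ways, so these sums do not hold for each list as a whole. Of 8 endothelial markers 3 were at their highest in WT 2 and 5 at their lowest. Of 6 mural markers 2 were at their highest there and 3 at their lowest. Epicardial, adipocyte, Schwann and lymphocyte lists each summed to at most 10.6 CPM in every library. The lymphocyte list was higher in WT 2, at 4.06 CPM against 0.899 to 1.88 CPM elsewhere. The adipocyte list was the one that separated the genotypes, on few counts, with 1 of its 6 markers past the filter.

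For each FGF gene the single protein-coding gene with the most similar pattern over the 6 libraries was sought among 12746 genes, by the root mean square distance of log2 CPM centred on the library mean. These likenesses are descriptions over 6 points, several of which WT 2 sets. The gene nearest to Fgfr1 was S100a10, which encodes a partner of annexin A2 (distance 0.03), and the one nearest to Fgfr2 was Mdk, which encodes the heparin-binding growth factor midkine (distance 0.09). Mdk had 7.63 CPM in WT 2 and 0.879 to 1.64 CPM elsewhere. Fgf1 ran closest to Prdm16, a transcriptional regulator (0.04), with 5.33 CPM in WT 2 and 7.76 to 9.81 CPM elsewhere. Fgf13 ran closest to Atp5d, a subunit of mitochondrial ATP synthase (0.02), and Fgfr3 to Itga1, a collagen-binding integrin (0.02). Fgf16 was nearest to Prlr, the prolactin receptor (0.11), whose values of 12.4, 5.65 and 8.78 CPM in WT and 6.89, 17.3 and 4.93 CPM in Zeb2 cKO followed the same rise and fall. The nearest genes of Fgf9 and Fgf2 were Aamdc (0.07) and Galnt12, an enzyme of mucin-type O-glycosylation (0.13).

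The other genes of the pathway were taken from lists by function, and 0 genes of any list had an adjusted p under 0.05 in edgeR's quasi-likelihood test, and 0 an unadjusted p under 0.05. Of 14 further secreted ligands 3 passed the filter on low counts, and the remaining 11 had 0.182 CPM or less in every library. Fgf7, keratinocyte growth factor, which is made by mesenchymal cells, had 0.319, 2.48 and 0.573 CPM in WT and 0.620, 0.369 and 0.428 CPM in Zeb2 cKO. Its log2 fold change was -1.26 (interval -3.02 to 0.50) and 0.09 without WT 2. Fgf18 had a log2 fold change of -0.29 (interval -0.90 to 0.32), and -0.11 without WT 2, and the third, Fgf6, which was named after its value was seen, had 0.56 (interval -0.99 to 2.12), and 0.43 without WT 2. The intracellular members Fgf11 and Fgf14 had log2 fold changes of -0.05 and -0.15, which turned to 0.07 and 0.24 without WT 2. Fgfrl1 was the only tested gene among Fgfr4, Fgfrl1 and the klotho co-receptors Kl and Klb. It had 11.8 CPM in WT 2 and 5.88 to 6.73 CPM elsewhere, with a log2 fold change of -0.40 that became -0.07 without WT 2.

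Heparan sulfate proteoglycans and the enzymes that build or trim their chains carry FGFs to their receptors, and 21 of 21 such genes were tested. Their median log2 fold change was -0.24, beside -0.01 for all tested genes, with 2 genes over 0.2 and 12 under -0.2. Of all tested genes, 15.9% were over 0.2 and 22.6% under -0.2. Without WT 2 the median of the list was -0.03, with 2 genes over 0.2 and 2 under -0.2. In that fit 2120 of all 14966 tested genes were over 0.2 and 1753 under -0.2. Gpc6, a glypican, had 16.5, 66.6 and 22.4 CPM in WT and 13.2, 16.7 and 20.6 CPM in Zeb2 cKO, and its log2 fold change of -1.06 moved to -0.20 without WT 2. Sdc4, a syndecan known as an FGF2 co-receptor, was at 11.9, 22.6 and 11.3 CPM in WT and at 11.01, 11.04 and 9.58 CPM in Zeb2 cKO. All WT libraries lay above all Zeb2 cKO libraries for Sdc4. It was the 1 of the 21 genes whose groups did not overlap, beside 6.36% of all tested genes. The log2 fold change of Sdc4 was -0.54 (interval -1.19 to 0.12, unadjusted p = 0.095 in edgeR's test), and -0.14 (interval -0.40 to 0.13) without WT 2. Among 7 tested membrane and extracellular modulators the median was -0.16, and 0.07 without WT 2. Ncam1, an adhesion molecule that can bind FGF receptors, had a log2 fold change of -1.14 (interval -2.45 to 0.18), and of -0.15 without WT 2, and Flrt2 had -0.47 and 0.10.

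**Figure D5:**
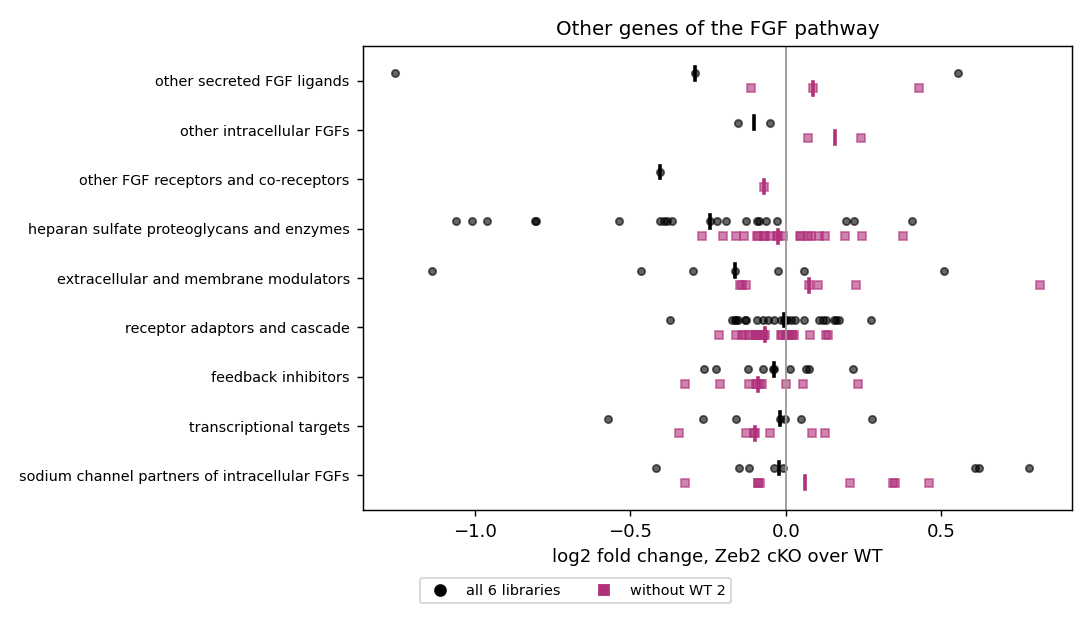
Log2 fold change of Zeb2 cKO over WT for each tested gene of 9 lists of the FGF pathway, from all 6 libraries (black circles) and without WT 2 (purple squares), with the median of each list as a vertical bar. The heparan sulfate list has a median of -0.24 with all libraries and -0.03 without WT 2.

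Downstream of the receptors the list medians lay near 0, with members on both sides of it. The 25 adaptor and cascade genes, all tested, had a median log2 fold change of -0.0046, with 1 gene over 0.2 and 1 under -0.2. Of all tested genes, 15.9% and 22.6% were past these cutoffs. Frs2, the docking protein of FGF receptors, had 14.7, 18.7 and 17.1 CPM in WT and 15.7, 13.6 and 15.8 CPM in Zeb2 cKO, with a log2 fold change of -0.16 (interval -0.48 to 0.16), and -0.07 without WT 2. The adaptors Gab2 and Crkl had -0.37 (interval -0.82 to 0.07) and -0.17 (interval -0.48 to 0.13), and without WT 2 they had -0.14 and -0.13. Feedback inhibitors are induced by receptor activity and dampen it, and 10 of the 11 listed genes were in the table and tested, with a median of -0.04. Dusp6, an ERK phosphatase, stayed between 17.5 and 21.9 CPM in all libraries, with a log2 fold change of -0.12 (interval -0.39 to 0.15). Spry1, Spry2, Spry4 and Spred1, which restrain RAS signalling, had -0.26, 0.01, 0.06 and -0.22. Without WT 2 the values of Spry1, Spry4 and Spred1 were -0.08, -0.21 and -0.08, and that of Spry2 was 0.00. Of the transcriptional targets 7 of 8 were tested, with a median of -0.02. The ETS factors Etv1, Etv4 and Etv5, common readouts of FGF activity, had -0.27, 0.00 and -0.02, with the wide interval of -1.13 to 1.13 for Etv4, and 0.08, -0.05 and -0.10 without WT 2. Myc had -0.57 (interval -1.47 to 0.32), and -0.13 without WT 2. Ccnd1, cyclin D1, had 0.28 (interval -0.17 to 0.73), and 0.13 without WT 2.

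The sodium channel genes, whose products the intracellular FGFs bind or accompany, had a median log2 fold change of -0.02 over 8 of 10 genes tested. Scn4a, the skeletal muscle channel, had 17.2, 4.35 and 14.9 CPM in WT and 17.5, 18.4 and 19.5 CPM in Zeb2 cKO. With all libraries it was the 1 of these 8 genes whose groups did not overlap, beside 6.36% of all tested genes. Its log2 fold change was 0.61 (interval -0.45 to 1.67), and 0.21 without WT 2. Scn4b, a beta subunit, had 0.62 (interval -0.25 to 1.499) and 0.35 without WT 2.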

How the data were processed

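RNA-seq had been performed on infarcted heart tissue of 3 WT and 3 Zeb2 cKO mice, and each library was placed in its genotype by its title. The deposited file was a single table of unnormalized gene counts. Per the methods, the authors made stranded libraries from RNA depleted of ribosomal RNA, sequenced single-end reads of 75 bases, and aligned and counted these with the STAR workflow on Gencode M4. The submitters' processing notes name the build GRCm38 (mm10) and DESeq 1.2. The strand option and the treatment of reads that map to several places are not given in the sources used here, and affect genes that overlap others. All 6 columns of counts matched a sample, 0 columns were left over, and 0 rows named no gene. No 2 libraries were alike, with different counts in at least 20076 genes for any pair.

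From these counts, symbols, coordinates and lengths were added from Gencode M21 by gene identifier. Genes with low counts were removed by filterByExpr (14746 kept), and genotypes were compared over the whole table by edgeR 4.0.16 (glmQLFit and glmQLFTest, TMM, R 4.3.3) with Benjamini-Hochberg adjustment and a threshold of 0.05. Intervals are 95% intervals from the same fit. Log2 fold changes carry a prior count of 0.125, and centred log2 CPM one of 2. Two-sided exact permutation tests over libraries were added for single values. The script was tested on simulated data. DESeq2 1.42.0, other scalings and filters, a replicate block and leaving out each library were tried as alternatives. Depth outside mitochondrial genes was 14301225 to 19024394 counts, so genes under about 0.2 CPM rest on a few counts, and the intervals do not cover errors of counting by the authors' pipeline. The FGF genes and all lists were chosen with earlier results of these data known. Named were the 9 FGF genes, Zeb2, in each list the genes with the 2 smallest unadjusted p plus preset ones (Fgfr4, Fgfrl1, Fgf11, Fgf14, Dusp6, Spry1, Spry2, Spry4, Etv1, Etv4, Etv5 and Frs2), overlapping genes and the nearest gene in pattern. One further preset gene is not reported here.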

Additional observations from a re-analysis of the deposited data

How the results depend on the processing

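In every alternative 0 FGF genes had an adjusted p under 0.05, while over all genes the count was 0 in each edgeR fit and 2 with DESeq2 (361 against 280 at an unadjusted p under 0.05). Leaving out 1 library at a time, the number of FGF genes with an unadjusted p under 0.05 was 0 to 2, the number whose groups did not overlap was 0 to 3, the number with a log2 fold change over 0.2 was 2 to 5 and under -0.2 was 1 to 3. Without WT 1 each of these counts was at its highest. In that fit 7.52% of all tested genes had an unadjusted p under 0.05 and 23% had groups that did not overlap. With any other library left out these shares were 0.813 to 2.63% and 10.9 to 22.6%. Without WT 2, 2120 of all 14966 tested genes were over 0.2 and 1753 under -0.2, and such counts are not given for the other fits. Without a WT library or Zeb2 cKO 1, 9 FGF genes were counted, since Fgf12 then passed the filter. Without WT 1, Fgf12 was among the 3 genes whose groups did not overlap and the 5 over 0.2. It made up the whole count by unadjusted p in the fits without WT 2 and without Zeb2 cKO 1. Without WT 2 it passed the filter through 2 Zeb2 cKO libraries and 0 WT libraries, so its part in these counts is not read as a result. With 1 library left out, the log2 fold change ranged from -0.67 to 0.13 for Fgf2, -0.55 to 0.30 for Fgf16 and -0.17 to 0.20 for Fgf13. It ranged from -0.71 to 0.013 for Fgfr1 and -0.095 to 0.14 for Fgfr3. The median of the transcriptional targets ranged from -0.32 (without Zeb2 cKO 2) to 0.10 over the same fits. Fgf1 and Fgf9 kept a value above 0 and Fgfr2 one below 0 in all of them. With no filter on low counts, 1 FGF gene, Fgf12, had an unadjusted p under 0.05 and groups that did not overlap. In that fit 600 of 24115 genes had an unadjusted p under 0.05, and the share with groups that did not overlap is not given. The median of the other secreted ligands was 0.55 in that fit, since more genes with few counts were included. Longest transcripts as lengths moved 4 FGF genes to another rank. Of the 269 values recomputed, 245 kept their direction and side of the threshold or moved by less than the limit set. That limit let changes of sign through, such as the median of the other secreted ligands, -0.29 with all libraries and 0.09 without WT 2. The count of 245 is therefore not a measure of how stable the values were. Where values moved by more than the limit, the cause was not tested.

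With the replicate number as a replicate block, Fgf16 turned to -0.087, and 247 genes in place of 280 had an unadjusted p under 0.05. Fgf2 moved to -0.253, so that 3 FGF genes in place of 2 were under -0.2. The counts of FGF genes by p, by overlap and over 0.2 did not change. The numbers did not pair the hearts, as deviations of same-numbered libraries correlated at 0.09, -0.14 and -0.09. Other scalings of Fgf12, chosen after seeing the data, gave a ratio of means of 2.40 to 2.4973 beside 2.4966. Depth limited Fgf12 most, with 2 to 14 counts per library.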
